A study of Mus musculus with 12 samples.

Results

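The effect of a laminin coat, averaged over wells with and without myelin, was described across genes in cultured cells of the embryonic mouse spinal cord. All 12 libraries of the series entered it: 6 from wells with laminin were set against 6 from wells without it. The cells came from wild-type C57BL/6 embryos at embryonic day 12 and were kept for 48 hours at 500000 cells per well. Every well carried poly-D-lysine (PDL), a synthetic polymer that lets cells attach, at 20 µg/ml. Laminin, where present, was added at 1 µg/ml and membranes of wild-type myelin at 10 µg/ml. The 4 coats were called Laminin (PDL and laminin), laminin plus myelin (all 3 components), PDL (PDL alone) and Myelin (PDL and myelin), with 3 libraries each. The labels call the 3 libraries of a coat biological replicates without saying whether they came from separate litters or days, so p-values cover only the variation among these wells. Myelin-coated wells that held no cells, collected to look for RNA carried by the coat, were not analysed here.

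Laminins are secreted proteins of basement membranes, built as trimers of an alpha, a beta and a gamma chain. Cells bind them through integrins and through dystroglycan, and integrins pass the signal to focal adhesion proteins and to small GTPases that shape the actin cytoskeleton. Laminin has long been used as a coat that favours neurite growth from neurons of the central nervous system, while adult myelin carries proteins that inhibit it.

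The 12 libraries held 36061511 to 45024091 counts in genes and detected 17870 to 19112 genes each. Levels are in CPM (counts divided by the library size after adjustment for composition) and are compared between libraries for 1 gene only, not between genes. Markers of neurons and of neural progenitors were both present: the 22 neuronal markers summed to 9000 to 11479 CPM with laminin and 8526 to 11312 CPM without, and the 30 progenitor markers to 988 to 1655 CPM with laminin and 1042 to 1599 CPM without. Markers of other cells were present as well, among them microglia, mesenchyme and red blood cells. In bulk samples, more cells of a type and more RNA per cell cannot be told apart. Laminin replicate 1 stood apart from its group, with 8.46% of its counts outside annotated genes against 13.2% and 13.7% in Laminin replicates 2 and 3. Counts of calls, and many of the values that moved without it, are given both ways.

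No gene passed the test for the averaged laminin effect. The edgeR quasi-likelihood test, with the replicate number as a block, called 0 of 15737 genes (0%) at an adjusted p under 0.05, and the smallest adjusted p was 0.255. At an unadjusted p under 0.05 there were 1230 genes higher with laminin (7.82%) and 1323 lower (8.41%). limma-voom also called 0 genes, whereas DESeq2 called 98 of 14211 (0.69%), 15 of them higher and 83 lower. The edgeR count was 15 without Laminin replicate 1 and 4 without the 4 libraries numbered 1. The log2 differences were small: their median over all genes was 0.01, their SD was 0.20, the median standard error (SE) was 0.08, and 44 genes reached a 2-fold difference in size. In the text that follows, a log2 value is the difference with laminin minus without laminin, with its SE, and a gene that did not pass the test is given by its values alone.

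Few genes kept the laminin and the laminin-free libraries wholly apart. Of 15737 genes, 5 had all 6 laminin libraries above all 6 others (0.0318%) and 5 had them all below (0.0318%). The 5 above were Dnajb3, Tmem14a, Ficd, Med9os and Rnf145, and the 5 below were Gpr111, Alpk1, Mir8116, Etv4 and Slc38a2; apart from Alpk1, they are named here because of these values. Within the 6 pairs of libraries that shared a replicate number and a myelin state, 380 genes (2.41%) were higher with laminin in every pair and 279 (1.77%) were lower in every pair.

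Etv4, an ETS transcription factor induced by FGF signalling (chromosome 11, 101769742 to 101785371, GRCm38), had 3.98, 4.60 and 3.96 CPM on Laminin, against 5.42, 4.76 and 4.91 CPM on PDL. On laminin plus myelin it had 4.49, 4.38 and 4.33 CPM, against 5.13, 5.10 and 5.53 CPM on Myelin. Its averaged log2 difference was -0.26 ± 0.08 (adjusted p = 0.262, edgeR), and it was of the same size with either background, -0.27 ± 0.12 without myelin and -0.26 ± 0.12 on myelin. Slc38a2, a neutral amino acid transporter, had a median of 271 CPM (246 to 272) with laminin and 285 CPM (277 to 314) without, a log2 difference of -0.12 ± 0.05. Alpk1, a kinase that senses a bacterial sugar (chromosome 3, 127670310 to 127780527), had 1.60 to 2.16 CPM with laminin and 2.17 to 3.25 CPM without, so the groups met almost edge to edge. Its log2 difference was -0.50 ± 0.10 (adjusted p = 0.255), with -0.66 ± 0.14 without myelin and -0.35 ± 0.14 on myelin.

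Gpr111, an adhesion G protein-coupled receptor, was near the limit of detection, at a median of 0.456 CPM (0.304 to 0.599) with laminin and 0.956 CPM (0.655 to 1.34) without. Among the 5 above, Dnajb3, a co-chaperone of the DnaJ family, had a median of 4.73 CPM (4.65 to 6.89) with laminin and 4.14 CPM (3.60 to 4.47) without. Tmem14a, a small membrane protein, had 4.98 CPM (4.84 to 5.83) with laminin and 4.10 CPM (3.62 to 4.74) without. Ficd, an enzyme of the endoplasmic reticulum that modifies the chaperone BiP, had 9.25 CPM (8.86 to 10.4) with laminin and 8.24 CPM (7.45 to 8.85) without. The highest value of Dnajb3, of Ficd and of Tmem14a was that of Laminin replicate 1. Rnf145, an ER ubiquitin ligase, differed least, with a log2 difference of 0.08 ± 0.04. Med9os is an antisense gene and Mir8116 a microRNA gene, and no source used here gives the strand setting of the counting, so neighbouring genes may lend reads to both; Mir8116 had at most 0.394 CPM in any library.

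**Figure D1:**
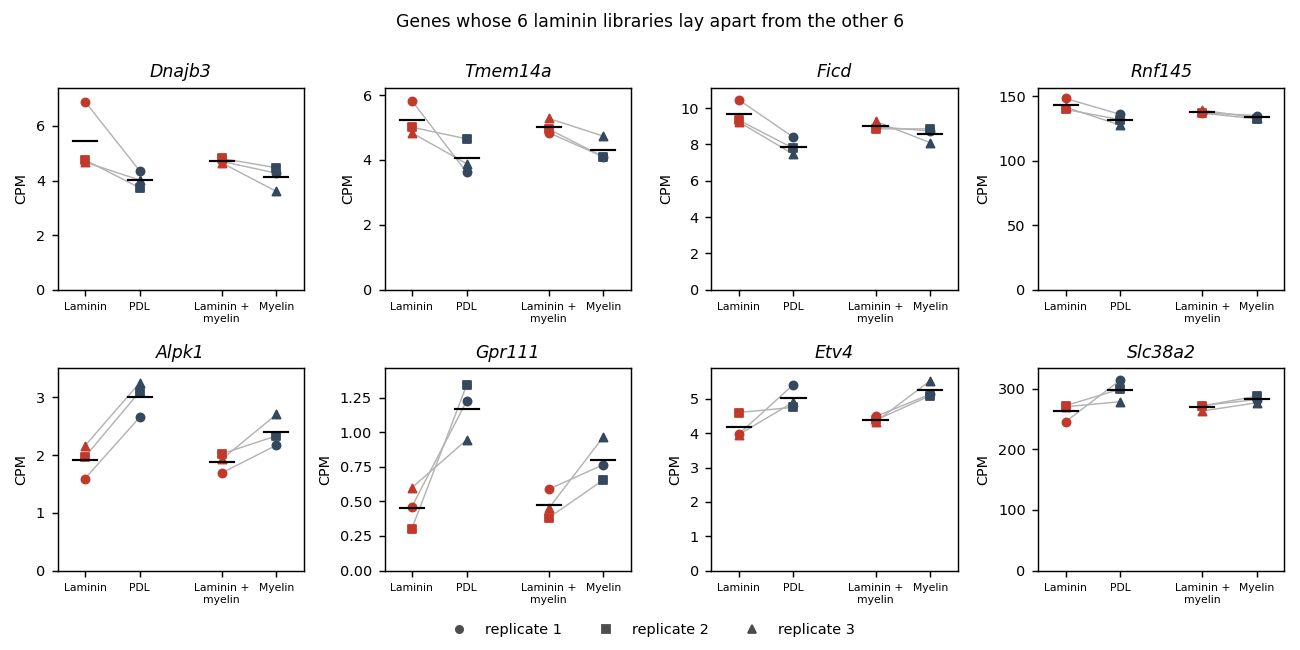
CPM of 8 of the 10 genes whose laminin libraries did not overlap with the others, by coat on the x axis; symbols mark the replicate number, grey lines join libraries of the same number and myelin state, and bars are means of 3 libraries. Etv4 lay at 3.96 to 4.60 CPM with laminin and 4.76 to 5.53 CPM without, while Rnf145 lay at 137 to 148 CPM with laminin and 128 to 136 CPM without.

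The genes with the smallest p and the same sign in all 6 pairs were modest in size. On the higher side stood Vsnl1, a neuronal calcium sensor, at 0.30 ± 0.06, Pop7, a subunit of RNase P, at 0.30 ± 0.07, and Sac3d1, a centrosomal protein, at 0.27 ± 0.06. Rprm, a p53-induced arrest gene, stood at 0.25 ± 0.06 and Cend1, a neuronal protein linked to cell cycle exit, at 0.19 ± 0.05. Vsnl1 had 34.3, 22.1 and 15.8 CPM on Laminin, against 21.6, 18 and 11.5 CPM on PDL. It had 31.0, 20.4 and 12.9 CPM on laminin plus myelin, against 27.3, 19.4 and 11.7 CPM on Myelin. Its level followed the replicate number more than the coat, so the groups overlapped although every pair was higher with laminin.

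On the lower side stood A230073K19Rik at -0.50 ± 0.09, Mog at -0.53 ± 0.10, Alpk1 as above, C130030K03Rik at -0.39 ± 0.08 and Zfp932, a zinc finger protein, at -0.28 ± 0.05. All 10 genes had an adjusted p of 0.255 in the averaged effect, and DESeq2 called all 10. Zfp932 (chromosome 5, 109996521 to 110010411) had 20.5, 21.4 and 21.1 CPM on Laminin, against 29.1, 29.4 and 29.5 CPM on PDL. It had 19.7, 18.7 and 16.9 CPM on laminin plus myelin, against 19.7, 19.3 and 19.3 CPM on Myelin. The 3 PDL libraries were thus the ones that stood apart. Mog encodes myelin oligodendrocyte glycoprotein, a late marker of oligodendrocytes, and was also highest on PDL, a coat with no myelin. It had 5.39, 6.35 and 5.39 CPM on Laminin, against 11.9, 11.0 and 7.51 CPM on PDL, and 5.26, 4.31 and 4.88 CPM on laminin plus myelin, against 6.34, 5.64 and 5.12 CPM on Myelin.

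The averaged effect was made of a comparison without myelin and one on myelin, given here side by side. In the same fit, Laminin against PDL gave 1282 genes at an adjusted p under 0.05 (8.15%), 419 higher (2.66%) and 863 lower (5.48%). These 1282 included all 98 genes that DESeq2 called in the averaged effect. They also included all 15 that edgeR called in it without Laminin replicate 1. Laminin plus myelin against Myelin gave 0 genes (0%), with 155 at an unadjusted p under 0.05 (0.985%), and DESeq2 and limma-voom also gave 0. The difference between these 2 comparisons was itself tested as an interaction: edgeR called 0 genes (0%), with 2603 at an unadjusted p under 0.05 (16.5%) and a smallest adjusted p of 0.167. DESeq2 called 241 genes in that test, limma-voom called 0, and edgeR without Laminin replicate 1 called 83. In the authors' deposited table, Laminin against PDL had 76 genes at an adjusted p under 0.05, 1 higher and 75 lower, and laminin plus myelin against Myelin had 0.

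The count for Laminin against PDL depended on the fit. It was 0 without the replicate block, and 0 when the 6 libraries without myelin were fitted alone. The smallest adjusted p of that separate fit was 0.0818, with 3205 of 15396 genes at an unadjusted p under 0.05. The 6 libraries with myelin, fitted alone, also gave 0 calls, with 219 of 15200 genes at an unadjusted p under 0.05. The biological coefficient of variation, a measure of spread between libraries, was 0.109 without myelin and 0.0562 on myelin in these separate fits. It was 0.0901 in the joint fit, so the joint counts of the 2 comparisons are not on equal terms. In the joint fit, the count for Laminin against PDL was also 0 without PDL replicate 1 and without PDL replicate 2. It was 641 without Laminin replicate 1, 2481 without Laminin replicate 2, 673 without laminin plus myelin replicate 1 and 727 without its replicate 3. Leaving out Myelin replicate 1 gave 592, Myelin replicate 2 gave 637, and Myelin replicate 3 gave 394. DESeq2 gave 2414 genes and limma-voom 1256, both with the block.

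The 419 genes called higher on Laminin than on PDL had a median log2 difference of 0.34 there and 0.01 on myelin, where 236 lay above 0 and 183 below. The 863 called lower had a median of -0.52 there and 0.01 on myelin, where 534 lay above 0 and 329 below. Over all genes tested, 53.3% lay above 0 on myelin. Across the 15737 genes, the log2 differences without and on myelin had a Pearson correlation of -0.04 and a Spearman correlation of -0.05, given as a description since genes are not independent replicates; the 2 comparisons share the fit and its block but no library. The SD of the log2 differences over all genes was 0.35 without myelin and 0.19 on myelin.

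**Figure D2:**
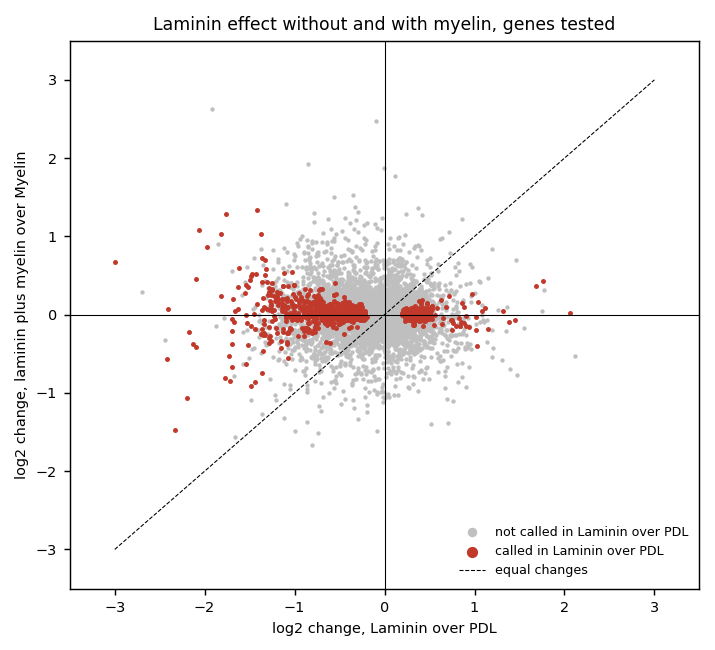
Each point is 1 of 15737 genes, with the log2 difference of Laminin over PDL on the x axis and that of laminin plus myelin over Myelin on the y axis; red points are the 1282 genes called in the first, and the dashed line marks equal differences. On the y axis the 419 higher and the 863 lower genes both have a median of 0.01, with some of the red points well away from 0.

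The share of counts outside annotated genes also differed between the coats. It was 11.8% ± 2.89 on Laminin against 18.1% ± 1.13 on PDL, and 11.5% ± 0.468 on laminin plus myelin against 11.3% ± 0.927 on Myelin (SD, n = 3 each). The 3 PDL libraries lay at 17.4% to 19.4%, above the other 9. Averaged over myelin, laminin libraries were 3.04 percentage points lower (SD of 6 pairs 3.98, lower in 4 of 6 pairs), with an exact two-sided permutation p of 0.1875 over 64 arrangements, where the smallest possible is 0.03125. Leaving out Laminin replicate 1 or PDL replicate 1 drops the same pair, and without that pair the difference was -1.85 percentage points. With this share as a covariate the averaged effect again had 0 calls, and so did Laminin against PDL. Because all 3 PDL libraries lay above the other 9, the share cannot be told apart from the PDL coat. Values adjusted for it, here and below, may therefore lose an effect of the coat as well. Each coat kept its own coefficient in that fit, so the slope of the share came from differences within coats. Those were largest on Laminin, where replicate 1 had 8.46%, so adjusted values may rest largely on that library.

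**Figure D3:**
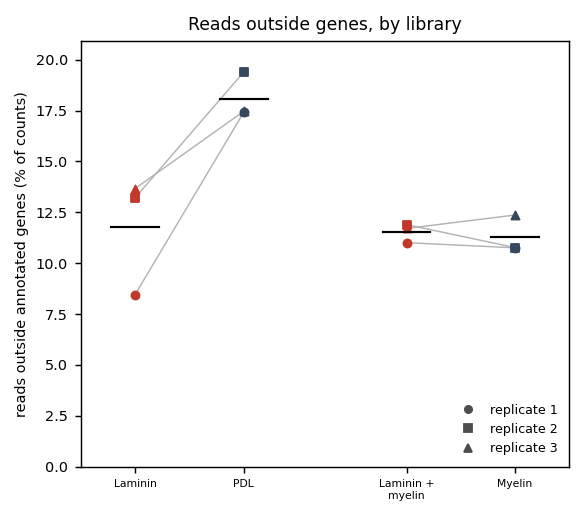
Share of all counts that fell outside annotated genes, in percent, by coat on the x axis; symbols mark the replicate number and bars are means of 3 libraries. The PDL libraries lie at 17.4% to 19.4%, and Laminin replicate 1, at 8.46%, is the lowest of the 12.

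Genes of laminin itself and of its receptors had averaged values that did not pass the test. The gene lists were chosen with earlier results of these data known. Their counts are to be read beside those over all genes, of which 53.1% lay above 0 in the averaged effect. Of the 15737 genes, 8237 lay above 0 without myelin and 8394 on myelin. At an unadjusted p under 0.05 in the averaged effect (edgeR), 7.82% of all genes were higher and 8.41% lower. Members named for other lists were chosen after their values were seen, unless the rule for named genes picked them. Of 9 laminin chain genes tested, 4 lay above 0 and 1 reached an unadjusted p under 0.05, on the lower side. Their median was -0.12, but -0.08 without Laminin replicate 1 and 0.12 adjusted for the share of counts outside genes. The pair numbered 1 without myelin had a median of -0.44, and the other 5 pairs had -0.10 to 0.07. Lama1, an alpha chain, had a median of 16.5 CPM (13.1 to 18.1) with laminin and 17.6 CPM (14.8 to 24.9) without, a log2 difference of -0.19 ± 0.11. Lama5, another alpha chain of many basement membranes, had 2.06, 9.77 and 17.5 CPM on Laminin, against 3.60, 15.3 and 19.5 CPM on PDL. In myelin wells Lama5 had 2.87, 9.69 and 18.2 CPM with laminin, against 3.11, 8.11 and 15.3 CPM without it. It varied mainly with the replicate number, and its averaged log2 difference was -0.17 ± 0.11 (95% interval -0.41 to 0.07). The beta chains Lamb1 and Lamb2 stood at 0.10 ± 0.07 and 0.00 ± 0.08, and Lamc1, the gamma chain shared by most laminins, at -0.12 ± 0.08. Lama5 stood at -0.10 and Lamc1 at -0.08 without Laminin replicate 1.

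Of 21 laminin receptor genes tested, 11 lay above 0, none reached an unadjusted p under 0.05 on the higher side and 1 did on the lower side, Itgb3. Their median was 0.04, and -0.07 adjusted for the share of counts outside genes. The integrin subunits Itga6 and Itga3, which pair with Itgb1 as laminin receptors, had averaged log2 differences of -0.03 ± 0.06 and -0.03 ± 0.08. Itgb1 had a median of 133 CPM (113 to 168) with laminin and 133 CPM (100 to 172) without, a log2 difference of 0.05 ± 0.06 with a 95% interval of -0.08 to 0.18. Dag1, which encodes dystroglycan, had 162, 169 and 184 CPM on Laminin, against 163, 151 and 159 CPM on PDL. Where myelin was present, Dag1 had 183, 176 and 205 CPM with laminin, against 193, 190 and 189 CPM without it. These groups overlapped, and the log2 difference was 0.05 ± 0.05 (95% interval -0.05 to 0.15). The sign of Itga6, Itga3, Itgb1 and Dag1 depended on which library was left out. Itgb3, a beta subunit that pairs with alpha V in vitronectin receptors, stood at -0.35 ± 0.16, with 2.15 CPM (1.53 to 3.21) with laminin and 2.77 CPM (1.77 to 4.41) without. Its difference was of like size in both comparisons, -0.34 ± 0.22 without myelin and -0.36 ± 0.22 on myelin. The syndecan Sdc2, a heparan sulfate proteoglycan, stood at 0.18 ± 0.09, and Rpsa, a ribosomal protein gene that also encodes a laminin-binding protein, at 0.16 ± 0.09. With Laminin replicate 1 left out, Rpsa stood at 0.03, and its reads may be shared with processed pseudogenes.

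Of 30 genes of focal adhesion signalling, 21 lay above 0, with 1 higher and 1 lower at an unadjusted p under 0.05 and a median of 0.03. The GTPases Cdc42 and Rhoa, which organise actin at the cell edge, stood at 0.11 ± 0.07 and 0.15 ± 0.06. Flna, an actin cross-linker that binds integrin tails, had 234, 420 and 420 CPM on Laminin, against 565, 579 and 471 CPM on PDL. On the combined coat Flna had 296, 300 and 359 CPM, against 310, 277 and 329 CPM on Myelin, and its averaged log2 difference was -0.28 ± 0.12. Arhgef7, an exchange factor for Rac and Cdc42, stood at 0.01 ± 0.04. Flna stood at -0.15, Cdc42 at 0.04 and Rhoa at 0.09 when Laminin replicate 1 was left out.

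Genes of smooth muscle and of fibrillar matrix lay mostly above 0, and by more without myelin than on it. Of 15 smooth muscle contractile genes, 11 lay above 0, with 5 higher and 0 lower at an unadjusted p under 0.05; the median was 0.13 averaged, 0.43 without myelin and 0.02 on myelin. Of 22 fibrillar collagen and mesenchyme genes, 16 lay above 0, with 7 higher and 0 lower and a median of 0.28. Without Laminin replicate 1 these medians were 0.19 and 0.20. Acta2, smooth muscle alpha-actin (chromosome 19, 34241090 to 34255590), had 53.6, 42.3 and 37.8 CPM on Laminin, against 24.6, 17.4 and 12.7 CPM on PDL. On laminin plus myelin it had 28.8, 51.5 and 36 CPM, against 40.5, 49.8 and 25.1 CPM on Myelin. Laminin and PDL libraries did not overlap, and those with myelin did. The averaged log2 difference of Acta2 was 0.68 ± 0.15 (adjusted p = 0.255, edgeR). In the same joint fit it was 1.31 ± 0.22 without myelin (adjusted p = 0.0171) and 0.05 ± 0.21 on myelin. The interaction test of edgeR called 0 genes, so a difference between these 2 values of Acta2 did not pass it.

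Actg2, the gamma actin of visceral smooth muscle, had 4.85, 4.07 and 3.62 CPM on Laminin, against 1.8, 1.34 and 0.892 CPM on PDL. It had 3.22, 4.62 and 2.24 CPM on laminin plus myelin, against 4.2, 2.68 and 1.23 CPM on Myelin. Its averaged log2 difference was 1.03 ± 0.18, higher in 5 of 6 pairs. Actin genes have close relatives, so reads may be shared among them. Tpm2, beta-tropomyosin, stood at 0.60 ± 0.12 and Tagln, transgelin, at 0.49 ± 0.15. Col3a1, a fibrillar collagen chain (chromosome 1, 45311538 to 45349706), stood at 0.62 ± 0.14, with a median of 9.61 CPM (8.18 to 15.3) with laminin and 6.2 CPM (3.39 to 14.2) without. Without the 4 libraries numbered 1, edgeR called 4 genes, all higher and all from these lists: Acta2 at 0.84, Col3a1 at 0.90, Actg2 at 1.32 and Tagln at 0.58. The summed markers of mesenchyme ranged from 270.1 to 532 CPM with laminin and 268 to 476 CPM without, and those of smooth muscle from 198 to 278 CPM with laminin and 162 to 251 CPM without.

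Other matrix and signalling genes had values of both signs. Of 25 targets of YAP and SRF, regulators of transcription that respond to adhesion and actin, 15 lay above 0, with 4 higher and 1 lower at an unadjusted p under 0.05 and a median of 0.03. The 1 lower was Tead1, a DNA-binding partner of YAP, at -0.25 ± 0.08, and the 4 higher included Fhl2, a LIM protein, at 0.28 ± 0.07. Tgfb3, a TGF-beta ligand, stood at 0.56 ± 0.13, with 1.08 ± 0.19 without myelin and 0.05 ± 0.18 on myelin. Ctgf, a matricellular protein and common target of YAP, stood at 0.39 ± 0.11 and Bgn, the proteoglycan biglycan, at 0.39 ± 0.14. Of 18 basement membrane genes, 11 lay above 0, with 4 higher and 2 lower at an unadjusted p under 0.05 and a median of 0.04. The 2 lower were Pxdn, which cross-links collagen IV, at -0.21 ± 0.09 and Col15a1, a collagen of basement membranes, at -0.53 ± 0.21. Col4a1 and Col4a2, the neighbouring genes of the main collagen IV chains, stood at 0.34 ± 0.11 and 0.23 ± 0.10. Col4a1 had 37.3, 57.5 and 59.8 CPM on Laminin, against 29.5, 27.5 and 33.2 CPM on PDL. Col4a1 had 37.1, 68.4 and 65.3 CPM on laminin plus myelin, against 51.9, 69.6 and 53.3 CPM on Myelin, where the groups overlapped. Sparc, a collagen-binding matricellular protein, stood at 0.23 ± 0.10, and Tgm2, a transglutaminase, at 0.45 ± 0.17. Pxdn stood at -0.10 and Sparc at 0.14 when Laminin replicate 1 was left out.

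**Figure D4:**
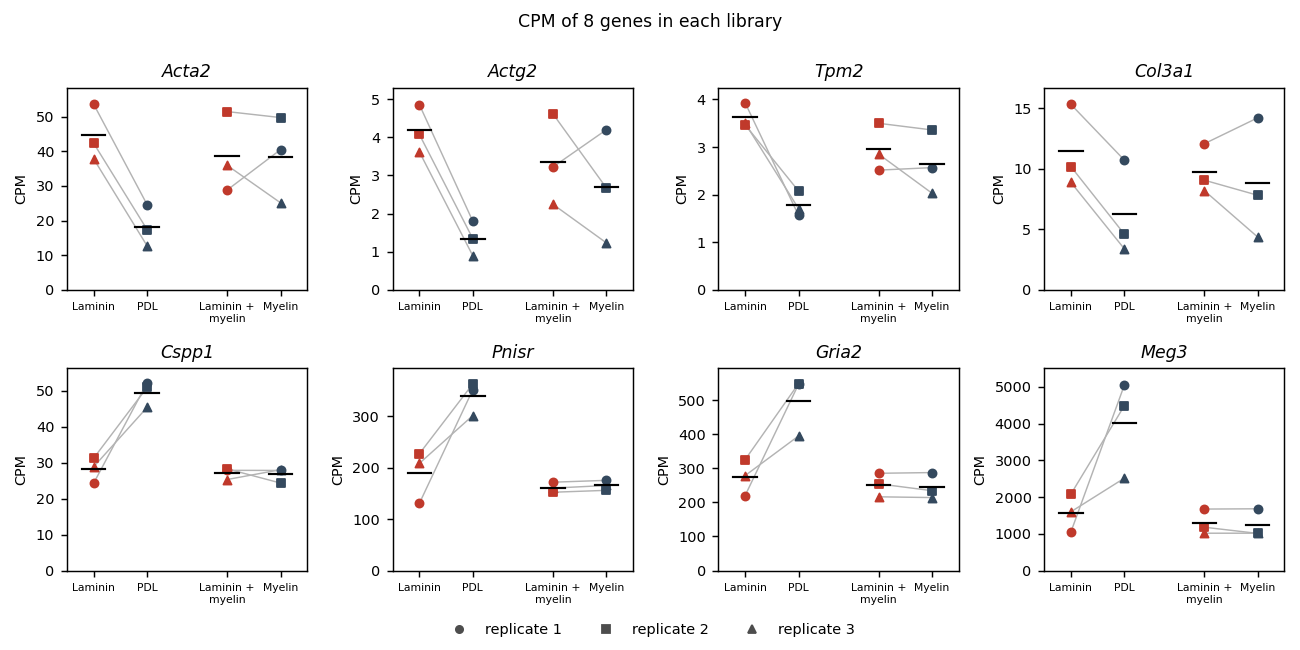
CPM of 8 genes by coat on the x axis; symbols mark the replicate number, grey lines join libraries of the same number and myelin state, and bars are means of 3 libraries. The upper 4 genes were higher on Laminin than on PDL in every pair and mixed on myelin; the lower 4 were lower on Laminin than on PDL in every pair, as Meg3 with 1047 to 2080 CPM on Laminin against 2513 to 5042 CPM on PDL.

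Genes of growth cones lay mostly above 0. Of 24 tested, 20 lay above 0, with 9 higher and 0 lower at an unadjusted p under 0.05, and the median was 0.11 averaged, 0.20 without myelin and -0.00392 on myelin. Without Laminin replicate 1 the averaged median was 0.07, and adjusted for the share of counts outside genes it was near 0. On myelin 11 of the 24 lay above 0. Related lists were mixed in the averaged effect. Above 0 lay 19 of 23 regeneration-associated genes and 18 of 22 neuronal markers. For axon guidance it was 14 of 38, and for the neuronal cytoskeleton 13 of 28. Gap43, a growth cone phosphoprotein, had 644, 461 and 359 CPM on Laminin, against 430, 416 and 317 CPM on PDL. In myelin wells it had 562, 539 and 395 CPM with laminin, against 566, 535 and 412 CPM without it. Its averaged log2 difference was 0.14 ± 0.06, with 0.31 ± 0.09 without myelin. Basp1, a membrane protein that acts with Gap43, and Marcksl1, a related actin regulator, both stood at 0.14, with SE of 0.04 and 0.05. Stmn3, a tubulin-binding protein, stood at 0.22 ± 0.08, and its value of 679 CPM in Laminin replicate 1 was far above the 351 to 449.8 CPM of the other laminin libraries. Tubb3, neuronal beta-tubulin, stood at 0.11 ± 0.05. Negr1, a neuronal adhesion protein, stood at 0.10 ± 0.05 and Sox2, a progenitor factor, at 0.05 ± 0.06. Gap43 stood at 0.08 and Stmn3 at 0.12 without Laminin replicate 1.

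Of 41 genes of synapses and ion channels tested, 10 lay above 0 in the averaged effect, with 2 higher and 8 lower at an unadjusted p under 0.05. The median was -0.08 averaged, -0.16 without myelin and -0.00285 on myelin. It was -0.04 without Laminin replicate 1 and 0.08 adjusted for the share of counts outside genes. Gria2, an AMPA receptor subunit, had 220, 325 and 278 CPM on Laminin, against 546, 548 and 395 CPM on PDL. Where myelin was present, it had 285, 254 and 216 CPM with laminin, against 287, 234 and 214 CPM without it. The PDL libraries were above the other 9, and the averaged log2 difference was -0.40 ± 0.10. Scn3a, a sodium channel of developing neurons, stood at -0.25 ± 0.07. Of 32 cell cycle genes, 10 lay above 0 in the averaged effect, with 0 higher and 3 lower and a median of -0.04. Without myelin 9 lay above 0, with a median of -0.08, whereas on myelin 24 did, with a median of 0.04. Pair medians ran from -0.27 to 0.26, and the averaged median was -0.13 without Laminin replicate 1 and -0.21 adjusted for the share of counts outside genes. Mki67, a marker of dividing cells, had a median of 26.7 CPM (20.9 to 51.0) with laminin and 33.7 CPM (24.7 to 50.5) without, and Cenpe, a kinetochore motor, stood at -0.28 ± 0.10.

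Nuclear and splicing-related RNAs had negative values without myelin and medians near 0 on it. Of 16 nuclear long noncoding RNAs, 3 lay above 0, with 0 higher and 7 lower at an unadjusted p under 0.05; the median was -0.19 averaged, -0.53 without myelin and 0.05 on myelin. Of 35 splicing regulators, 3 lay above 0, with 0 higher and 17 lower; the median was -0.10 averaged, -0.22 without myelin and 0.01 on myelin. Meg3, an imprinted noncoding RNA, had 1047, 2080 and 1599 CPM on Laminin, against 5042, 4482 and 2513 CPM on PDL. Meg3 had 1674, 1179 and 1016 CPM on laminin plus myelin, against 1681, 1011 and 1017 CPM on Myelin. Its averaged log2 difference was -0.61 ± 0.18, and -0.41 without Laminin replicate 1. Malat1 and Neat1, both nuclear RNAs, stood at -0.26 ± 0.14 and -0.26 ± 0.13, and Miat at -0.54 ± 0.19. Leaving out Laminin replicate 1, these 3 stood at -0.12, -0.17 and -0.33.

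Pnisr, an SR-rich nuclear protein, had 131, 227 and 209 CPM on Laminin, against 352, 363 and 302 CPM on PDL. On the combined coat Pnisr had 172, 152 and 160.4 CPM, against 176, 156 and 165 CPM on Myelin; it was lower in every pair, by little on myelin. Its log2 difference was -0.44 ± 0.11, beside -0.34 ± 0.08 for Luc7l3, a U1-associated splicing factor, and -0.29 ± 0.06 for Clk1, a kinase of SR proteins. Cspp1, a centrosomal protein (chromosome 1, 10037987 to 10136768), had 24.3, 31.2 and 28.8 CPM on Laminin, against 52.1, 50.9 and 45.3 CPM on PDL. On laminin plus myelin it had 27.8, 28.3 and 25.3 CPM, against 27.8, 24.3 and 28.0 CPM on Myelin. Without Laminin replicate 1 edgeR called 15 genes in the averaged effect, all lower, among them Cspp1, Pnisr, Luc7l3, Gria2, the meiotic gene Sycp1 and the osmotic stress factor Nfat5. The share of counts outside genes was also high in the PDL libraries, where these genes were high. With it as a covariate the medians of the noncoding and splicing lists were 0.07 and 0.00. The share and the PDL coat cannot be told apart in this design, and a link of either to these genes was not tested.

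Genes of the respiratory chain and the ribosome lay above 0, and the size of their values rested on 1 pair. All 54 respiratory chain genes encoded in the nucleus lay above 0, with 18 higher and 0 lower at an unadjusted p under 0.05, and all 75 ribosomal protein genes did, with 4 higher and 0 lower. The medians were 0.18 and 0.16. The pair of Laminin replicate 1 and PDL replicate 1 had medians of 0.82 and 0.83, where the other Laminin against PDL pairs had 0.13 and 0.11 for the respiratory chain and 0.08 and 0.11 for the ribosome. On myelin the pair medians lay between -0.05 and 0.04 for the respiratory chain and between -0.09 and 0.01 for the ribosome. Without Laminin replicate 1 the averaged medians were 0.07 and 0.03, and adjusted for the share of counts outside genes they were -0.15 and -0.26. Ndufb3, a complex I subunit, had 48.4, 33.4 and 36 CPM on Laminin, against 28.2, 28.3 and 31.1 CPM on PDL. Cox8a, a cytochrome oxidase subunit, stood at 0.21 ± 0.07 and Rpl13 at 0.19 ± 0.08, and ribosomal genes may share reads with their pseudogenes. Ndufb3 stood at 0.25 averaged and 0.16 without Laminin replicate 1, where Cox8a stood at 0.13 and Rpl13 at 0.08.

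Cholesterol synthesis genes had medians of the same sign without and on myelin, which was not particular to them. All genes tested did too (0.0150 and 0.00458), as did other lists, among them fibrillar collagen and focal adhesion genes. Regeneration-associated genes had medians of 0.15 and 0.03, and lay above 0 in 6 of 6 pair medians. Of 30 genes, 22 lay above 0 in the averaged effect and 22 on myelin, with 8 higher and 0 lower at an unadjusted p under 0.05, and the medians were 0.07 averaged, 0.10 without myelin and 0.05 on myelin. Sqle, squalene epoxidase, had a median of 296 CPM (261 to 314) with laminin and 259 CPM (238 to 305) without, was higher in 6 of 6 pairs, and stood at 0.14 ± 0.04. Fdps, farnesyl diphosphate synthase, stood at 0.21 ± 0.06 and Mvd, a decarboxylase of the mevalonate pathway, at 0.19 ± 0.07. In the pairs numbered 1 to 3 the list medians were 0.10, 0.11 and 0.06 without myelin. On myelin they were 0.13, -0.06 and 0.01, so the sign there was not the same in every pair.

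Microglial genes had medians of opposite sign without and on myelin. Of 20 tested, 17 lay above 0 without myelin and 3 on myelin, with medians of 0.33 and -0.13. In the averaged effect 12 lay above 0, with 6 higher and 0 lower at an unadjusted p under 0.05 (edgeR). The averaged median was 0.10, but 0.06 without Laminin replicate 1 and 0.02 adjusted for the share of counts outside genes. C1qa, a complement component, had 2.03, 3.59 and 5.73 CPM on Laminin, against 0.990, 2.15 and 3.36 CPM on PDL. C1qa had 2.44, 6.83 and 11.9 CPM on laminin plus myelin, against 3.04, 8.31 and 11.2 CPM on Myelin. Lyz2, lysozyme, stood at 0.80 ± 0.12 without myelin and -0.14 ± 0.12 on myelin, and Trem2, a lipid receptor, at 1.09 ± 0.33 and -0.01 ± 0.19. The summed microglial markers were 67.4 to 203 CPM on Laminin against 55.2 to 156 CPM on PDL, and 59.7 to 263 CPM on laminin plus myelin against 69.0 to 275 CPM on Myelin. Their part in the other lists was not tested.

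Mobp and Mbp, both genes of compact myelin, had more counts in wells with myelin. Mobp had 7.40, 12.0 and 11.11 CPM on laminin plus myelin, against 8.22, 29.3 and 16.7 CPM on Myelin, and at most 0.301 CPM in any library without myelin. Mbp, myelin basic protein, had 222, 397 and 373 CPM on laminin plus myelin, against 233, 748 and 453 CPM on Myelin, and 27.5 to 44.0 CPM without myelin. On myelin their log2 differences were -0.70 ± 0.21 and -0.48 ± 0.24, neither past the test. The 6 red blood cell genes tested, of 11 listed, all lay below 0 in the averaged effect, with a median of -0.24. Their pair medians ran from -0.77 to 0.16. The averaged median was -0.35 without Laminin replicate 1 and -0.57 adjusted for the share of counts outside genes. Their summed level was 77.5 to 329 CPM with laminin and 105 to 343 CPM without. Over the 35 lists, the averaged medians ran from -0.24 for these red blood cell genes to 0.28 for the mesenchyme genes, beside 0.01 for all genes.

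**Figure D5:**
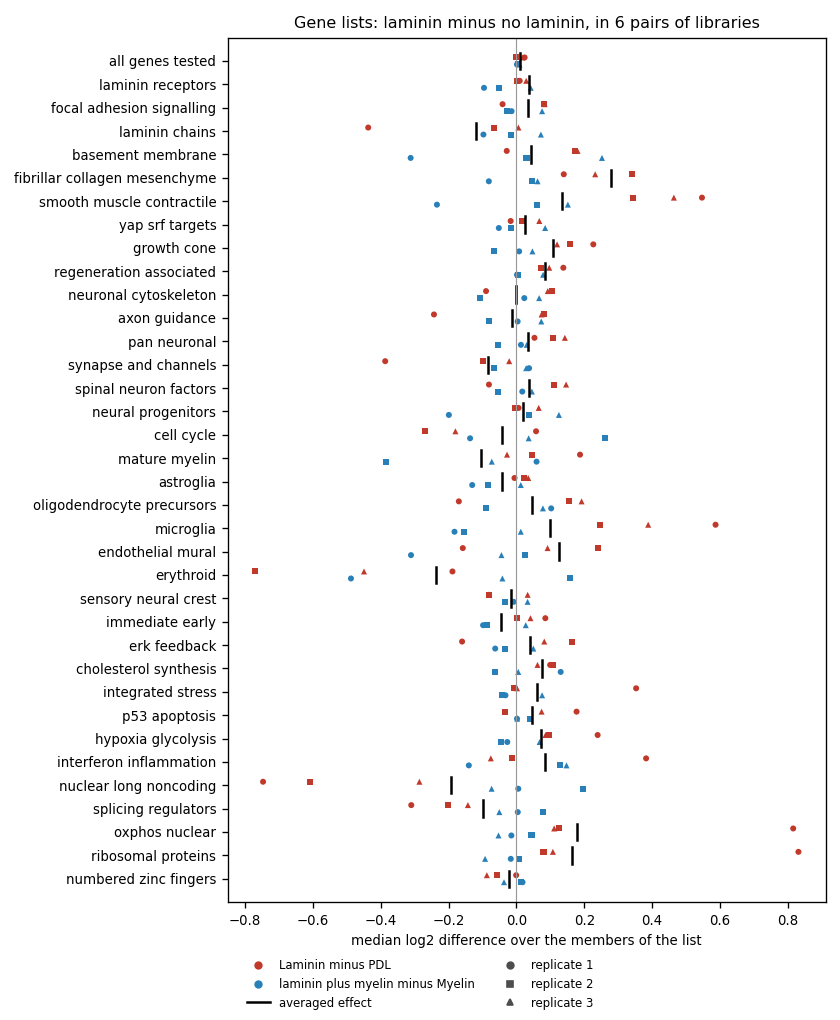
Median log2 difference over the members of each gene list, laminin minus no laminin, on the x axis; red symbols are the 3 Laminin minus PDL pairs, blue symbols the 3 laminin plus myelin minus Myelin pairs, and black ticks the averaged effect. The respiratory chain and ribosome lists reach 0.82 and 0.83 in the pair of replicate 1, whereas the blue symbols of those lists lie between -0.09 and 0.04.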

How the data were processed

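The libraries were paired-end TruSeq libraries, per the labels. The authors deposited raw counts per gene for 12 libraries, which were tested here, and their own log2 fold changes and adjusted p-values, quoted only as theirs; 12 columns of normalized counts were not used. CASAVA 1.8.2, edgeR and the builds mm10 and GRCm38 come from the submitters' processing notes. No source used here names the aligner, the counting program or the strand setting. Of 21033 entries, 3 named no gene and were left out of library sizes; they held 8.46% to 19.4% of counts outside genes, 11.5% to 13.6% aligned to several places and 0.579% to 0.717% matching several genes. Of 27 symbols turned into dates, 25 were restored. Coordinates are GENCODE M21 on GRCm38, matched by symbol, and are given for genes found there.

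Counts were fitted with edgeR 4.0.16 in R 4.3.3 (filterByExpr, TMM, robust quasi-likelihood) with 1 coefficient per coat and replicate number 1 to 3 as a block. Adjusted p-values are Benjamini-Hochberg over 15737 genes, with a threshold of 0.05. limma 3.58.1 and DESeq2 1.42.0 were alternatives, as were scaling, filter, block, covariate and left-out libraries. The steps were also run on simulated data. The laminin effects planted there were equal without and on myelin, and larger than the SD of the averaged log2 differences here. That run cannot show whether smaller effects, or ones that differ with myelin, would be found. Libraries of the same number deviated together (18 pairs, Pearson r 0.218 to 0.83), against -0.77 to 0.243 for the 36 other pairs, so the numbers pair the samples in the data; the labels do not say why. Genes named by rule were the 5 smallest p in each direction with a mean of at least 1 CPM and 1 sign in all 6 pairs, since none passed the test, the members with the highest counts of the receptor, chain and adhesion lists, and a short fixed set. The members and lists were chosen with earlier results of these data known.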

Additional observations from a re-analysis of the deposited data

Results flagged for a closer look

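Single libraries lay far from the other 5 of their set of 6 for several named genes. For independent values from 1 distribution, such a rule flags about 1 in 20 sets, and there were 85 genes with 2 sets each. That rate is only a rough guide here. Each set mixes 2 coats and 3 replicate numbers, and many of the genes were chosen after their values were seen. Among libraries with laminin, Laminin replicate 1 stood apart for Stmn3 (679 CPM), Marcksl1 (1597 CPM), Ndufb3 (48.4 CPM), Dnajb3 (6.89 CPM) and Ficd (10.4 CPM) as the highest, and for Nfat5 (79.5 CPM) and Slc38a2 (246 CPM) as the lowest. Laminin plus myelin replicate 2 was the highest for Bgn (11.4 CPM) and Ctgf (26.6 CPM), and laminin plus myelin replicate 3 for Mki67 (51.0 CPM). Among libraries without laminin, Myelin replicate 1 was the highest for Pop7 (18.5 CPM).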

How the results depend on the processing

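The averaged effect had 0 calls under every alternative run except DESeq2 (98 genes, 18 list members) and left-out libraries (0 to 15 genes, 0 to 4 list members). The interaction had 241 calls with DESeq2 and 0 to 83 with libraries left out. Laminin against PDL had 1282 calls, 0 without the replicate block, 0 when adjusted for the share of counts outside genes, 0 in its own 6 libraries, 2414 with DESeq2, and 0 to 2481 with libraries left out. With the replicate block removed, the averaged effect still had 0 calls. The biological coefficient of variation was 0.0901 with the block and 0.205 without it. The cause of these differences was not tested, and the share of counts outside genes cannot be told apart from the PDL coat. Values adjusted for the share lean on its spread within coats, which was largest on Laminin through replicate 1.

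With that adjustment (and the block), the log2 difference turned sign for Itgb1 (-0.116), Itga3 (0.24), Lama5 (0.256), Gap43 (-0.0625), Meg3 (0.326), Malat1 (0.359), Rpsa (-0.246), Lama1 (0.0952), Cdc42 (-0.145), Flna (0.279), Dnajb3 (-0.0348), Pnisr (0.0723), Luc7l3 (0.0109), Gria2 (0.071), Scn3a (0.00781), Miat (0.411), Neat1 (0.351), Stmn3 (-0.0672), Marcksl1 (-0.0246), Ndufb3 (-0.0453), Rpl13 (-0.135), Sdc2 (-0.0433), Rhoa (-0.0784), Pxdn (0.227), Tead1 (0.00707) and Sparc (-0.0843). Lamb2, at 0.00, was -0.00378 with DESeq2 size factors, -0.012 without scaling, -0.0118 with at least 1 CPM in 3 libraries and -0.0038 with the DESeq2 test; Arhgef7 was -4.33e-05 without scaling. With libraries left out, the range crossed 0 for Itga6 (-0.0984 to 0.0281), Itgb1 (-0.00597 to 0.0929), Itga3 (-0.152 to 0.084), Dag1 (-0.00816 to 0.0901), Sdc3 (-0.0091 to 0.111), Lamb2 (-0.0695 to 0.0893), Arhgef7 (-0.0214 to 0.0356), Mbp (-0.265 to 0.0999) and Mobp (-0.58 to 0.332). With 3 libraries a coat, the median SE was 0.0771 for the averaged effect. It was 0.109 for Laminin against PDL and 0.109 for laminin plus myelin against Myelin. Differences of about that size cannot be resolved, and a larger difference is not resolved by its size alone. Actg2, at 1.03 ± 0.18, did not pass the test for the averaged effect.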
